A study of Mus musculus with 6 samples.

Results

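The genes described here make cholesterol or control its making: the enzymes that lead from acetyl-CoA to cholesterol, the SREBP transcription factors with the proteins that hold or release them, the liver X receptors and their targets, and a few genes of sterol transport, storage and lipid synthesis. They were taken from a list of 34 symbols for 32 genes, 2 of which have an older symbol. The deposited table held a row for 29 of the 32, and 28 reached a mean of 10 normalised read counts over the 6 libraries and were tested among 12568 genes. Hmgcs1, Mylip and Abca1 were not analysed here. Abcg1, a sterol exporter, lay under the minimum with a mean of 2.07, whereas the tested member nearest to the minimum, Nr1h3, had a mean of 149.

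RNA was sequenced from NMuMG cells, an epithelial line from the mammary gland of a normal mouse that turns mesenchymal under TGF-beta. The 3 siMnt libraries came from cells transfected with small interfering RNA against Mnt and given TGF-beta, and the 3 siNTC libraries from cells transfected with a non-targeting control and given TGF-beta. Both groups were taken on day 4, after transfection and TGF-beta were started together 16 hours after plating, with equal cell numbers per well, and both were renewed on day 2. Every cell compared had therefore received TGF-beta, and cells without it were not analysed here. The knockdown is transient, leaves part of the Mnt RNA in place, and the siRNA sequences were not analysed here.

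Cells make cholesterol from acetyl-CoA by way of mevalonate, farnesyl diphosphate, squalene and lanosterol. When the endoplasmic reticulum holds little sterol, SCAP carries the SREBP precursors to the Golgi, where they are cut, and the freed factors switch on nearly all genes of the pathway; when sterol is plentiful, the INSIG proteins keep SCAP in place. SREBPs bind the sterol regulatory element and also E-boxes, the sequence class that Mnt, a repressor paired with Max, and Myc bind.

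In siMnt cells 6 of the 28 tested genes rose and 0 fell: Insig1, which restrains SREBP release, the mevalonate pathway enzymes Pmvk and Mvd, the lanosterol synthase Lss, the sterol reductase Hsd17b7 and the sterol acyltransferase Soat1. A gene passed where limma's p, adjusted by Benjamini-Hochberg across the 12568 genes, was under 0.05. By that rule 2.56% of all tested genes were higher and 1.37% lower, 3.93% in all. Insig1 had the largest change of the 28, with 2466 ± 269 normalised read counts in siMnt cells and 1130.2 ± 253 in siNTC cells (SD, n = 3 each). The 28 genes had a median log2 fold change of 0.32, against -0.01 over all tested genes, and 24 of them lay above 0, as did 48.6% of all tested genes. The other 22 genes did not pass. Of the 28 genes 13 had an unadjusted p under 0.05 and were higher, and 1 was lower. Of all 12568 tested genes 2938 had one in either direction. That count over all tested genes stands beside every later unadjusted count from the fit of all 6 libraries. On whole reads recovered from the deposited values, edgeR called the same 6 genes higher, when 2.29% of all tested genes were, and DESeq2 called 10, when 6.71% were; 0 fell by either tool.

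The Mnt level in the siMnt libraries was 613, 557 and 749 normalised read counts, against 1316, 896 and 1596 in the siNTC libraries, so that 50.4% of the control level remained. The log2 fold change was -0.96 ± 0.22 (SE), outside the threshold in limma (adjusted p = 0.0546) and inside it once the replicate number was a block (0.00442). By an exact two-sided permutation test p was 0.1, and no smaller value is possible with 3 libraries a group. Without siNTC replicate 2 or 3 the adjusted p was 0.0393 or 0.041 (limma). Without siMnt replicate 1, siMnt replicate 2, siMnt replicate 3 or siNTC replicate 1 it was 0.225, 0.209, 0.0902 or 0.188, outside the threshold. Recovered read totals lay between 22323050 and 42193293 per library. siNTC replicate 3 stood apart from its group: its score on principal component 1 (60.8% of the variance) was -0.81, the scores of the other controls being -43.0 and -52.3 and those of the siMnt libraries 29.4 to 35.5. All 8 epithelial markers looked for had a row, and their summed level was 129998 to 141551 in siMnt and 119297 to 147578 in siNTC libraries, most of it from Krt8, Krt18 and Krt19. Limma called 0 of the 8 (2 at an unadjusted p under 0.05, edgeR 0 and DESeq2 1). The block called 1 higher, Cdh1, and 1 lower, Cldn4, and without siNTC replicate 3 limma called 2 higher, Cdh1 and Ocln, and 2 lower, Krt7 and Cldn4, when 9.51% and 6.5% of all tested genes were. Cdh1, the epithelial cadherin, was at 11109, 9742 and 10867 in siMnt and 6495, 5813 and 10319.9 in siNTC libraries (log2 fold change 0.53, adjusted p = 0.179, and 0.0474 with the block). Cldn4, a tight junction claudin, was at 83.3, 100.2 and 63.7 in siMnt and 272, 485 and 77.5 in siNTC libraries (log2 fold change -1.41, adjusted p = 0.198, and 0.0254 with the block). Esrp1, a splicing factor, was low, at 5.97 to 11.03 in siMnt and 12.2 to 26.5 in siNTC libraries. Of 6 macrophage markers 5 had a row and 3 were tested. Csf1r rose by 1.09 on the log2 scale (adjusted p = 0.0242, limma) and Itgam by 1.84 (adjusted p = 0.0493), and Cd68 did not pass. The list's summed level was 2001 to 2299.8 in siMnt and 963 to 1329 in siNTC libraries, most of it from Csf1r. Csf1r alone was at 2074, 1995 and 1856 in siMnt and 757, 881 and 1196 in siNTC libraries. Cd68 was at 164 ± 45.8 in siMnt and 190 ± 67.8 in siNTC cells (SD, n = 3 each), with overlapping groups. Lyz2, under the minimum and not tested, was higher in every siMnt library than in every siNTC library. The pan-leukocyte gene Ptprc was near 0 in every library, at 3.24, 3.58 and 2.45 in siMnt and 3.49, 6.65 and 1.29 in siNTC cells. Of 5 adipocyte markers Cidec and Lipe had a row, with a summed level of 316 to 390.2 in siMnt and 184 to 289 in siNTC libraries, and of 5 endothelial markers Pecam1 and Cdh5, with 41.8 to 49.02 in siMnt and 65.2 to 99.6 in siNTC libraries. In the fit of all libraries limma called 0 of these lists' tested genes (1 each at an unadjusted p under 0.05, edgeR 0 and DESeq2 1 each). The block called 1 higher, Lipe, and 1 lower, Cdh5, when 9.33% and 6.56% of all tested genes were. Limma without siNTC replicate 3 called the same 2, when 9.51% and 6.5% of all tested genes were. The part of these markers in the sterol genes' values was not tested.

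The number of calls changed with the library left out, among the 28 genes and over all tested genes alike, and the cause was not tested. Without siNTC replicate 3, 11 of the 28 genes were higher, the same 6 among them, when 9.51% of all tested genes were. Without siNTC replicate 2, 4 were higher, when 1.11% of all tested genes were, and 3 of these were among the 6. Without siMnt replicate 1, siMnt replicate 2, siMnt replicate 3 or siNTC replicate 1, limma called 0 of the 28. In these fits 10, 11, 10 and 10 had an unadjusted p under 0.05, when 1816, 1920, 2272 and 2193 of all tested genes did. Over all tested genes 0.629% were called higher without siMnt replicate 3 and 0 without each of the other 3. Same-numbered libraries of the 2 groups deviated together, and under a block on that number 11 of the 28 were higher and 0 lower by limma, when 9.33% of all tested genes were called higher. The 5 genes added by the block were Acat2, Idi1, Fdps, Sqle and Lpin1. Limma without a trend in the variance called 3, Insig1, Mvd and Pmvk, when 1.69% of all tested genes were called higher. A correction for GC content and length, chosen after the data were seen, called 9 higher alone and 13 with the block, when 4.78% and 10.8% of all tested genes were. Since libraries are bulk RNA, a change in the share of cells and a change in the RNA per cell cannot be told apart.

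**Figure D1:**
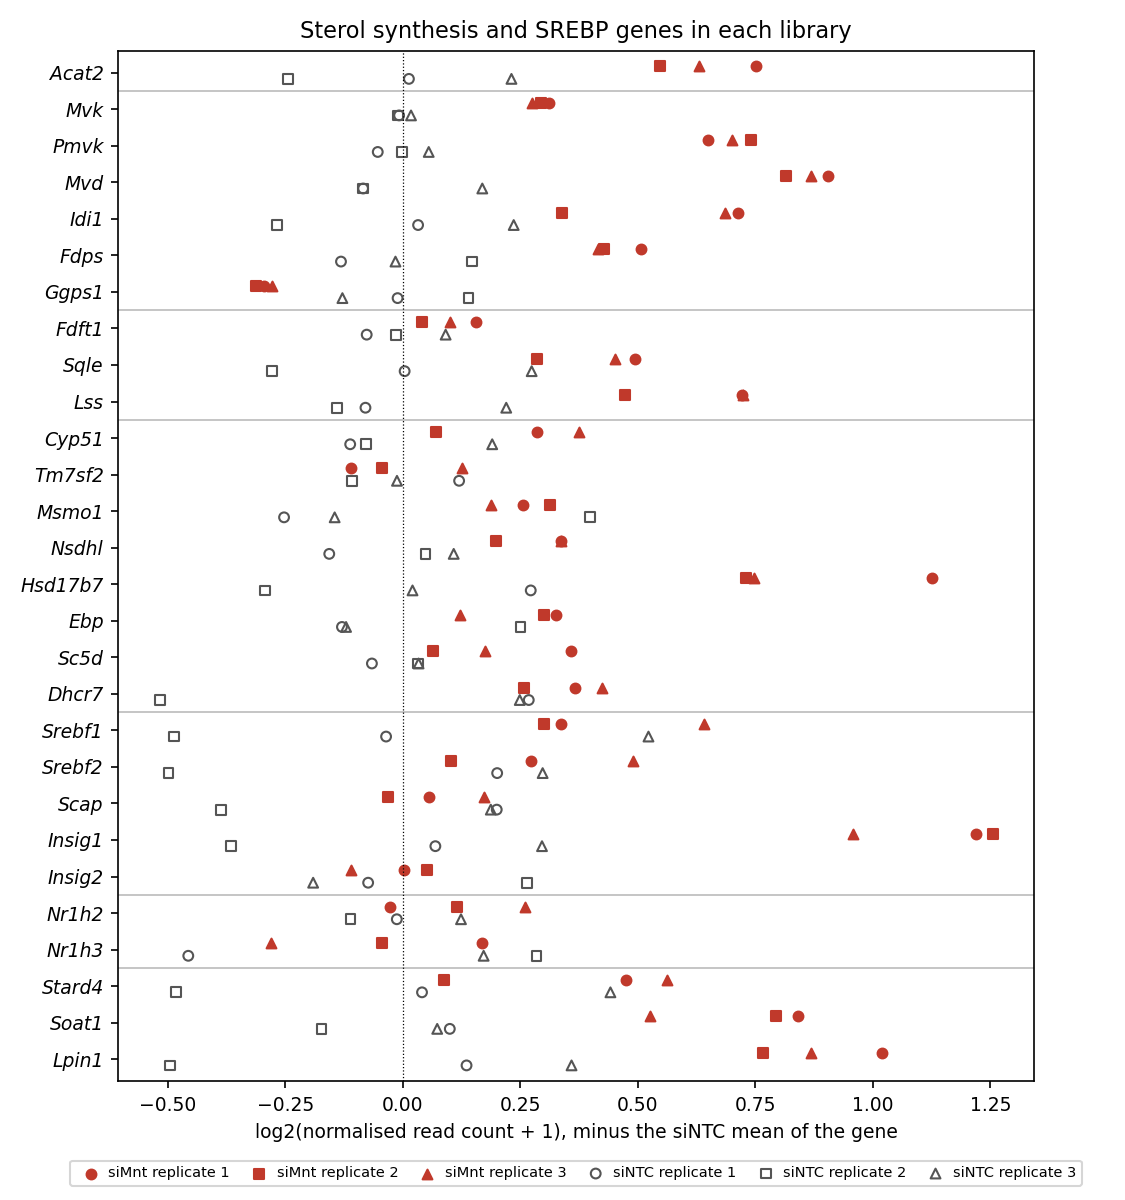
Level of each of the 28 tested genes in each library, as log2(normalised read count + 1) minus the mean of the 3 siNTC libraries of that gene; filled red marks are siMnt, open marks siNTC, and the mark shape is the replicate number. In 14 genes every siMnt library lies to the right of every siNTC library, and in Ggps1 every one lies to the left.

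The siMnt and siNTC libraries did not overlap in 15 of the 28 genes, 14 of them higher and 1 lower in siMnt. Over all tested genes the groups did not overlap in 31.5%, with siMnt higher in 15.6% and lower in 15.9%. Taking each replicate number by itself, 21 of the 28 genes were higher in siMnt in all 3 numbers, when 28.4% of all tested genes were, and 1 was lower in all 3, when 29.4% were. The median log2 difference of the 28 genes was 0.47, 0.46 and 0.21 within numbers 1, 2 and 3, against -0.02, -0.01 and -0.00 over all tested genes. In 17 of the 28 genes siNTC replicate 3 was the highest control, as it was in 33.8% of all tested genes. Spread within a group was larger in siNTC cells, with a median coefficient of variation of 8.05% in siMnt and 16.0% in siNTC libraries. Over all tested genes these were 9.34% and 17.8%.

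The promoters of all 6 genes that rose are shown, with that of Insig2 for contrast, since it is the relative of Insig1 that did not pass. The sequences are RefSeq's on build GRCm38.p6, each 300 bases from 250 before to 50 after a transcription start, read 5′ to 3′ along the gene; the deposited values were made on another build and carry no coordinates. Insig1 lies on the plus strand (chr5:28071162-28071461), Hsd17b7 on the minus strand (chr1:169969156-169969455), the first of 2 Pmvk starts on the plus strand (chr3:89454291-89454590), Mvd on the minus strand (chr8:122443373-122443672), Lss on the plus strand (chr10:76531355-76531654), Soat1 on the minus strand (chr1:156474279-156474578) and the most upstream of 3 Insig2 starts on the minus strand (chr1:121332540-121332839). Capitals mark the E-box CACGTG and the CCAAT box, the site of the SREBP partner NF-Y, on either strand (CCAAT or ATTGG).
Insig1: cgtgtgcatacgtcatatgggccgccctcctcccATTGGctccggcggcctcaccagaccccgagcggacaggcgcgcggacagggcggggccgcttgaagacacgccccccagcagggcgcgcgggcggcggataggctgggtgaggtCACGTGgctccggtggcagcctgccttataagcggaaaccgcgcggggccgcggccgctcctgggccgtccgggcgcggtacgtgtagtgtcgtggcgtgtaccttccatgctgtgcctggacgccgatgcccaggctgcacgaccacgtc
Hsd17b7: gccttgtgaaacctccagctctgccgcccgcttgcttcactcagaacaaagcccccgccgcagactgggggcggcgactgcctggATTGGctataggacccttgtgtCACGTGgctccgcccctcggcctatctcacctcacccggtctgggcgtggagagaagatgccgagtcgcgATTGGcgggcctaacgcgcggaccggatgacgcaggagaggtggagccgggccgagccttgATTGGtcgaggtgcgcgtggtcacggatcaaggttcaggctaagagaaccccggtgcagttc
Pmvk: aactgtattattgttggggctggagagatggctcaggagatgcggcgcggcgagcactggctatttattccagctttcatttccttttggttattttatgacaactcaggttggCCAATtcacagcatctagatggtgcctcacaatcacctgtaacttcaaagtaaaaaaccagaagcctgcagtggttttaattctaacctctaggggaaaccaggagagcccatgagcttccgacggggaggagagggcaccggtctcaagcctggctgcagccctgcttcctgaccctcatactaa
Mvd: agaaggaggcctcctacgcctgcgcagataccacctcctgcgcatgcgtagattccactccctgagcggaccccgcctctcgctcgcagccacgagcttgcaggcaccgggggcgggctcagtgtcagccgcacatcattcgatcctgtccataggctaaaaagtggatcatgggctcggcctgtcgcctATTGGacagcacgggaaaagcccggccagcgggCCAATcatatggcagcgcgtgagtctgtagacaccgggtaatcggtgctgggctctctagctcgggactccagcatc
Lss: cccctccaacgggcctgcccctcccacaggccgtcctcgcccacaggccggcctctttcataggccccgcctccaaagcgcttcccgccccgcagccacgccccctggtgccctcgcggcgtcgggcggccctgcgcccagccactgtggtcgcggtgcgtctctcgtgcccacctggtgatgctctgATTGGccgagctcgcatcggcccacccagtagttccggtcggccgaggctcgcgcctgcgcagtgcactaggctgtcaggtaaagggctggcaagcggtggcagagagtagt
Soat1: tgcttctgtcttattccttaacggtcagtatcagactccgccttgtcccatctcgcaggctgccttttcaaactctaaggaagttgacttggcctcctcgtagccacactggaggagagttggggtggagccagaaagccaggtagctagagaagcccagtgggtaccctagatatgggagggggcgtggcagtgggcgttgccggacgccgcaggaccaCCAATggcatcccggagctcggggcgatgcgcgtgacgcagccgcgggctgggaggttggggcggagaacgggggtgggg
Insig2: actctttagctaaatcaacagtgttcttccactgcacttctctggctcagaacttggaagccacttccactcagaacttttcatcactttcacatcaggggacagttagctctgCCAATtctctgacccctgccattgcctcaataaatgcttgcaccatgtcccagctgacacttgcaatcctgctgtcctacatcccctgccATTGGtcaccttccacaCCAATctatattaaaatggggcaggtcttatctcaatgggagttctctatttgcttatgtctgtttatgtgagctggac

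Insig1 held its E-box 101 bases before the start and Hsd17b7 143 bases before it. Around this E-box both windows shared the 14 bases gtCACGTGgctccg, a run chosen after the sequences were seen. Of all 32851 windows, 5 held this run, those of Insig1 and Hsd17b7 among them because the run was taken from them. The rest belonged to 3110045C21Rik, 4930524J08Rik and Hnrnpd. The run contains the E-box, so it cannot be in more than the 2349 windows with an E-box. Its lower count is therefore no sign of a special site. The windows of Pmvk, Mvd, Lss, Soat1 and Insig2 had no E-box in these letters. RefSeq windows were found for 24 of the 28 genes, 33 windows in all, and not for Fdps, Fdft1, Sqle and Stard4. CACGTG was in 6 of the 33 windows, or 18.2%, against 7.15% of all windows. Those 6 belonged to 5 genes, of which Insig1 and Hsd17b7 rose and Sc5d, Dhcr7 and Scap did not pass. The 2 Scap windows overlap and hold the same E-box.

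The CCAAT box, searched on both strands, was in 20 of the 33 windows, or 60.6%, against 37.4% of all windows. It stood in at least 1 window of 19 of the 24 genes, all 6 that rose among them. For Pmvk it was in the window of the first of 2 starts only. The Sp1 box GGGCGG was in 23 windows, or 69.7%, against 35.7% of all windows, and in 5 of the 6 genes that rose. The sterol regulatory element, searched as TCACNCCAC on both strands, was in 0 of the 33 windows and in 1.24% of all windows. In the 33 windows 0 matches of different motifs overlapped. For the E-box and these motifs, the shares of all windows cover all 32851 windows, not those of the tested genes alone. Counts by gene have no share over all genes beside them. A match is a description of the letters, not a measured site.

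**Figure D2:**
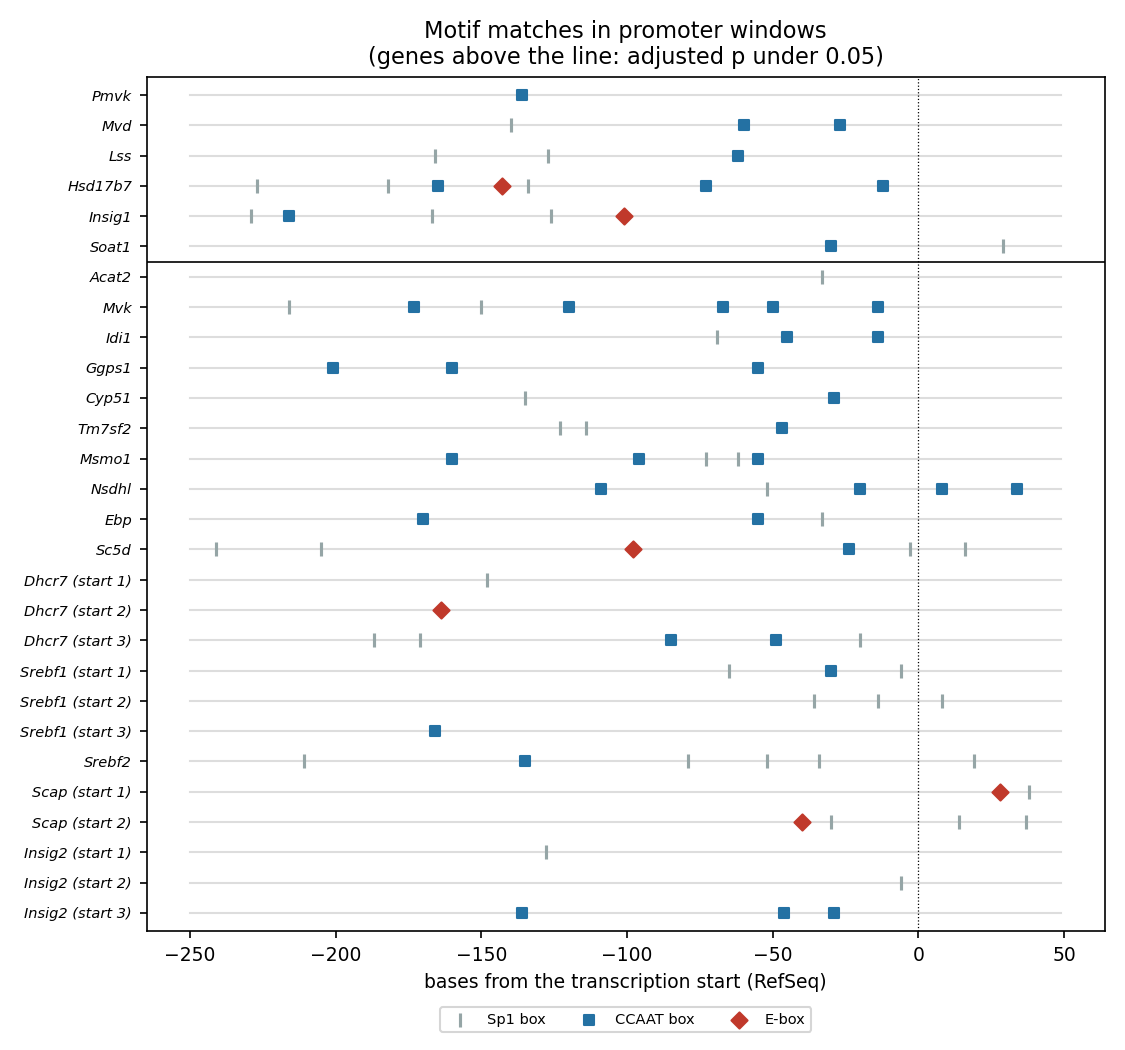
Matches of the E-box (red diamonds), CCAAT box (blue squares) and Sp1 box (grey ticks) in the promoter windows with at least 1 match, by the distance in bases of the first base of the match from the transcription start. The 6 genes that rose stand above the line, and each has at least 1 CCAAT box; the E-boxes of Hsd17b7 and Insig1 lie at -143 and -101.

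The first steps run from acetyl-CoA to mevalonate. Acat2, the cytosolic thiolase that joins acetyl-CoA units, was at 3004, 2607 and 2762 normalised read counts in siMnt cells, against 1799, 1505 and 2093 in siNTC cells. All siMnt libraries lay above all siNTC libraries, and the log2 fold change was 0.64 ± 0.14, just outside the threshold (adjusted p = 0.0509, limma). It passed with the block (adjusted p = 0.0113) and without siNTC replicate 3 (adjusted p = 0.0101).

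Of the 6 enzymes that turn mevalonate into farnesyl and geranylgeranyl diphosphate 2 rose and 0 fell by limma, with 4 rising and 0 falling under the block. By unadjusted p under 0.05, 5 were higher and 1 lower. Mvd, the decarboxylase that makes isopentenyl diphosphate, was at 1074, 1009 and 1048 in siMnt libraries and at 541, 541 and 645 in siNTC libraries. Every siMnt value was well above the highest control, the log2 fold change being 0.86 ± 0.13 (adjusted p = 0.0206, limma). Pmvk, the kinase one step before it, was at 926, 987 and 959 in siMnt and 569, 589 and 613 in siNTC libraries, with a log2 fold change of 0.70 ± 0.12 (adjusted p = 0.0264). Its values were even within each group, with a coefficient of variation of 3.21% among siMnt and 3.77% among siNTC libraries, and with differences of 0.70, 0.74 and 0.65 on the log2 scale within numbers 1, 2 and 3. Mvd and Pmvk passed without siNTC replicate 2 (adjusted p = 0.0399 and 0.0399) and without siNTC replicate 3 (0.00323 and 0.0102). Without any other single library they did not pass, with adjusted p from 0.0659 to 0.14 for Mvd and from 0.0845 to 0.154 for Pmvk.

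Mvk, the kinase that starts this stretch, had 493, 487 and 480.4 normalised read counts in siMnt and 395, 394 and 402 in siNTC libraries. The gap was small but the groups did not overlap (log2 fold change 0.29 ± 0.12, adjusted p = 0.207, limma). Idi1, the isomerase that makes dimethylallyl diphosphate, was at 2213 ± 306 in siMnt and 1486 ± 256 in siNTC cells (SD, n = 3 each; adjusted p = 0.0893, limma, and 0.012 with the block). Fdps, farnesyl diphosphate synthase, was at 3644 ± 124 in siMnt and 2674 ± 261 in siNTC cells (SD, n = 3 each; adjusted p = 0.0684, limma, and 0.03 with the block). The annotated exons of Fdps share 26.7% of their bases with the gene model Gm43738 on the same strand, so some of its reads may not be told apart from that model's.

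Ggps1, which makes the geranylgeranyl diphosphate used to modify small GTPases and so leads away from sterols, was the one member whose siMnt libraries all lay below the controls. Its level was 1455, 1438 and 1474 in siMnt, against 1773, 1968 and 1634 in siNTC libraries. The log2 fold change of -0.30 ± 0.11 did not pass (adjusted p = 0.174, limma; 0.102 with the block).

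Of the 3 enzymes from farnesyl diphosphate to lanosterol 1 rose, Lss, which closes the sterol rings. Lss was at 2445, 2056 and 2446 in siMnt libraries, against 1402, 1344 and 1725 in siNTC libraries. Its groups did not overlap, and the log2 fold change of 0.64 ± 0.14 passed by a narrow margin (adjusted p = 0.0485, limma; 0.00936 with the block; 0.00978 without siNTC replicate 3). With each of the other libraries dropped in turn, the adjusted p of Lss was 0.0708 to 0.229. Sqle, the squalene epoxidase and a rate-limiting step, was at 5420.3, 4695 and 5264 in siMnt and 3861, 3176 and 4657 in siNTC libraries. Its highest control, siNTC replicate 3, lay just under the lowest siMnt library, and Sqle passed with the block (adjusted p = 0.0447) and without siNTC replicate 3 (0.035) but not in the unblocked fit of all 6 libraries (0.165). Fdft1, squalene synthase, overlapped between the groups, at 1135 ± 45.1 in siMnt and 1061 ± 62.9 in siNTC cells (SD, n = 3 each), and 18.3% of its annotated exon bases overlap Ctsb on the other strand, which the counting may not separate.

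Of the 8 enzymes from lanosterol to cholesterol 1 rose, Hsd17b7, which reduces the sterol ketone left after demethylation. Hsd17b7 had 1714, 1302 and 1317 normalised read counts in siMnt libraries, against 948, 640.2 and 796 in siNTC libraries. Every siMnt value was above every control, by a log2 fold change of 0.87 ± 0.18 (adjusted p = 0.0434, limma; 0.00438 with the block). It passed without siNTC replicate 3 (adjusted p = 0.0265) and did not pass without any other single library (0.066 to 0.2).

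The other 7 did not pass in the fit of all libraries (adjusted p = 0.199 to 0.979, limma), and 0 of them passed with the block. Nsdhl, a sterol dehydrogenase of the demethylation complex, and Sc5d, the desaturase near the end of the pathway, had groups that did not overlap, with log2 fold changes of 0.29 ± 0.12 and 0.20 ± 0.12. Cyp51, the demethylase that acts first on lanosterol, was at 16496 ± 1747 in siMnt and 13942 ± 1647 in siNTC cells (SD, n = 3 each). Msmo1, the methylsterol oxidase, was at 4079 ± 176 in siMnt and 3493 ± 888 in siNTC cells, and the isomerase Ebp at 1352 ± 102 in siMnt and 1144 ± 179 in siNTC cells (SD, n = 3 each). In Msmo1 and Ebp the highest control was siNTC replicate 2, with 4510.4 and 1350.2, and for Msmo1 this lay above all siMnt libraries. Dhcr7, the last reductase, went the other way in that library, with 1129.9, 1049 and 1176 in siMnt and 1056, 613 and 1042 in siNTC libraries. Tm7sf2, a sterol reductase whose reaction Lbr also carries out, was at 360.2 ± 30.8 in siMnt and 362 ± 28.9 in siNTC cells (SD, n = 3 each), the smallest difference of the 28 genes, with a sign that flips under TMM scaling. Of its annotated exon bases 12.1% lie in Vps51 too, on the same strand. Lbr, not one of the 28, was at 1841 ± 126 in siMnt and 1336 ± 67.3 in siNTC cells (SD, n = 3 each), without overlap. It did not pass (adjusted p = 0.0629, limma, and 0.022 with the block).

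**Figure D3:**
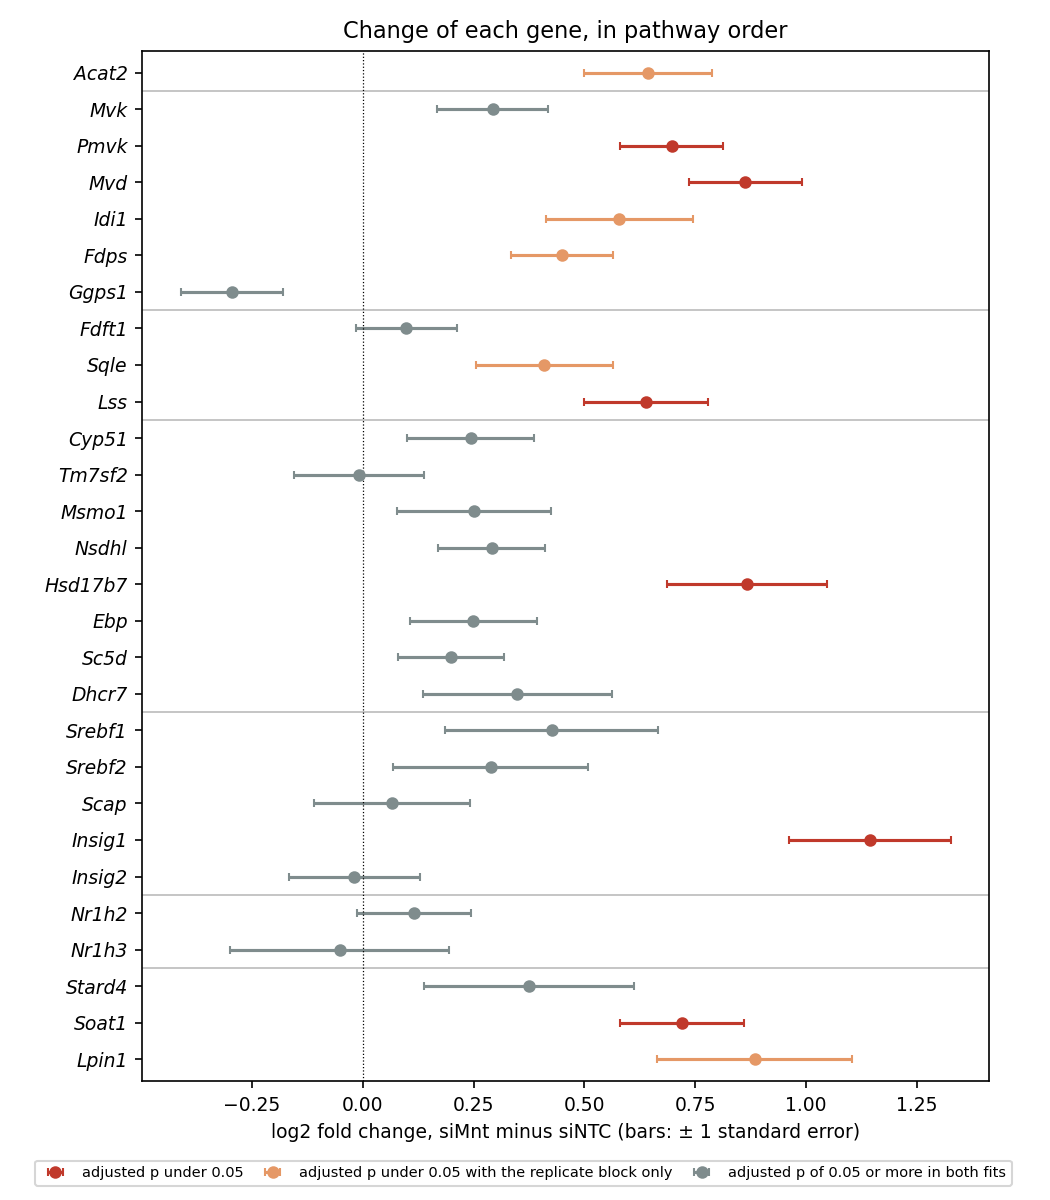
Log2 fold change of each tested gene, siMnt minus siNTC, with bars of 1 standard error from limma, in the order of the pathway; grey lines separate the roles. Red genes passed, orange genes passed with the replicate number as a block only, and grey genes did neither; Insig1 lies farthest to the right at 1.14 and Ggps1 farthest to the left at -0.30.

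Among the 5 genes of the SREBP system 1 rose, Insig1, and 0 fell. Insig1, itself switched on by SREBPs and so part of a feedback loop, was at 2589, 2651 and 2158 normalised read counts in siMnt libraries, against 1165, 862 and 1364 in siNTC libraries. The lowest siMnt library lay above the highest control, the mean was 2.18 times that of siNTC cells, and the log2 fold change was 1.14 ± 0.18 (adjusted p = 0.0242, limma; 0.00562 with the block). Insig1 was the one member both called and at least 2-fold higher, when 1.82% of all tested genes were. It passed without siNTC replicate 2 (0.0393) and siNTC replicate 3 (0.00288), came to 0.0505 without siMnt replicate 3, and to 0.103, 0.126 and 0.14 without siNTC replicate 1, siMnt replicate 2 and siMnt replicate 1. Within numbers 1, 2 and 3 its log2 differences were 1.15, 1.62 and 0.66, the widest range of the 6 genes that rose.

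Insig2, the second INSIG protein, was at 945, 977 and 874 in siMnt and 896, 1133 and 826 in siNTC libraries. Its groups overlapped fully (log2 fold change -0.02 ± 0.15, adjusted p = 0.958, limma). The ratio of Insig1 to Insig2 counts, taken within each library, was 2.74, 2.71 and 2.47 in siMnt and 1.30, 0.761 and 1.65 in siNTC libraries. All 3 siMnt ratios exceeded all siNTC ratios, with a difference of 1.16 on the log2 scale and p = 0.1 by an exact two-sided permutation test, the smallest it can give. The difference in this ratio restates the separate fold changes of Insig1 and Insig2, and its test cannot give a p under 0.05 with 3 libraries a group. The ratio does not show that Insig2 stayed level.

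Srebf2, whose product mainly drives cholesterol genes, was at 10681, 9502 and 12428 in siMnt, against 10167, 6263 and 10873 in siNTC libraries. The low value was siNTC replicate 2, and the other 2 controls lay within the siMnt range (log2 fold change 0.29 ± 0.22, adjusted p = 0.467, limma). Srebf1, whose product mainly drives fatty acid genes, was at 3163, 3085 and 3902 in siMnt and 2442, 1786 and 3596 in siNTC libraries. Here siNTC replicate 3 was above 2 of the 3 siMnt libraries (log2 fold change 0.43 ± 0.24, adjusted p = 0.322, limma), and without that library the adjusted p was 0.0355. The ratio of Srebf2 to Srebf1 counts was 3.38, 3.08 and 3.19 in siMnt and 4.16, 3.51 and 3.02 in siNTC libraries, overlapping between the groups (exact two-sided permutation test, p = 0.5). Scap, the escort of the SREBPs, was at 1259, 1185 and 1365 in siMnt and 1391, 926 and 1379 in siNTC libraries, with siNTC replicate 2 again the lowest and the other controls above every siMnt library. The table holds RNA levels, so cutting of the SREBP proteins was not measured.

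**Figure D4:**
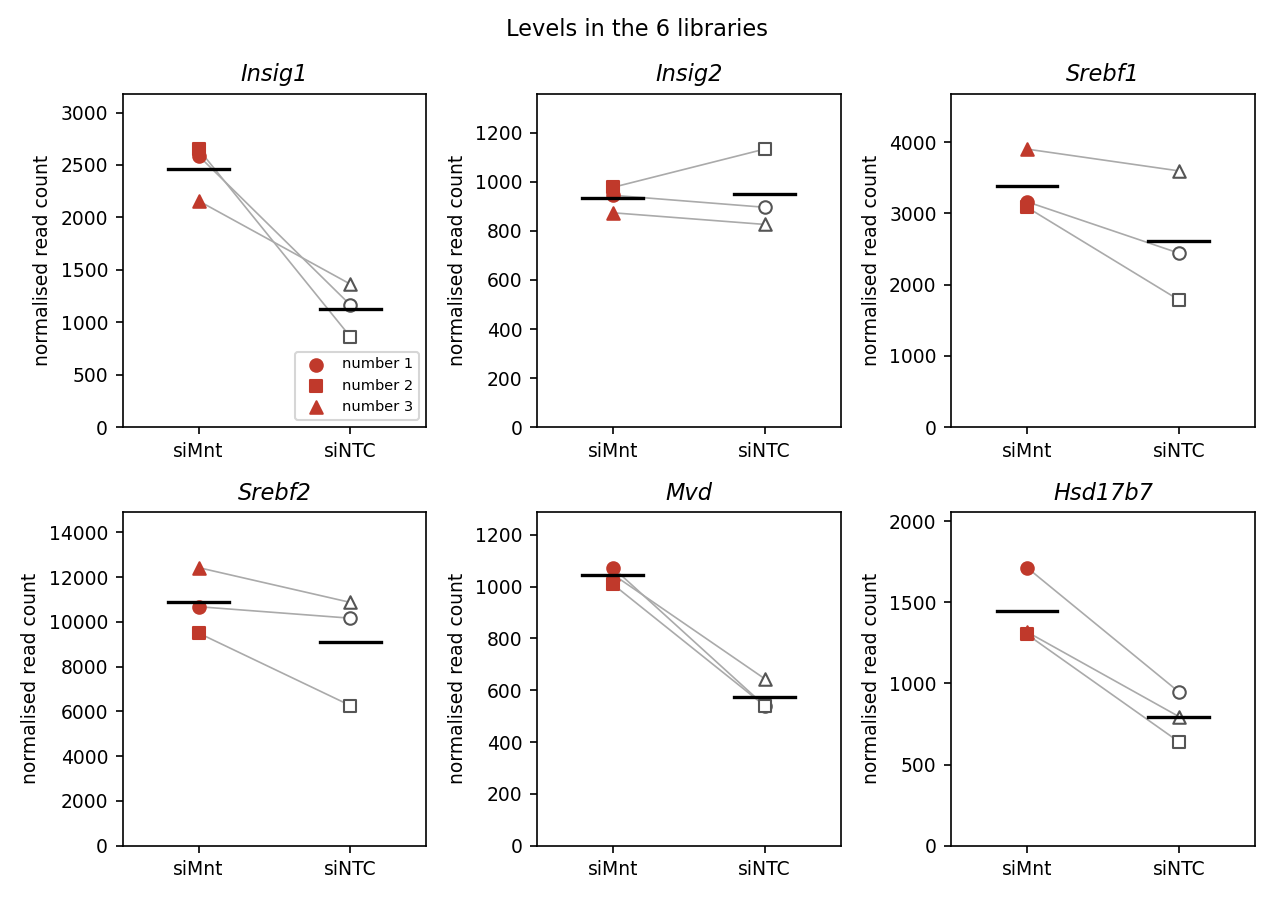
Normalised read counts of Insig1, Insig2, Srebf1, Srebf2, Mvd and Hsd17b7 in the siMnt libraries (left, filled) and siNTC libraries (right, open); grey lines join libraries with the same replicate number and black bars are means of 3. For Insig1, Mvd and Hsd17b7 all siMnt points lie above all siNTC points; for the other 3 genes the groups overlap.

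The liver X receptors sense oxysterols and switch on sterol export. Of the 2 tested members of this group 0 passed by limma, 0 had an unadjusted p under 0.05, and 0 passed by edgeR or DESeq2. Nr1h2 was at 1371 ± 136 in siMnt and 1264 ± 104 in siNTC cells, and Nr1h3 at 145 ± 22.5 in siMnt and 153 ± 39.0 in siNTC cells (SD, n = 3 each), with overlapping groups in both. The exporter Abcg1, a target of these receptors, was near the limit of counting, at 5.41, 2.39 and 2.45 normalised read counts in siMnt and 0.873, 0 and 1.29 in siNTC libraries, and was not tested.

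Of the 3 remaining genes 1 rose, Soat1, the enzyme that esterifies cholesterol for storage. Soat1 was at 1495, 1447 and 1202 in siMnt libraries, against 894, 739.9 and 878 in siNTC libraries. The groups did not overlap, and the log2 fold change was 0.72 ± 0.14 (adjusted p = 0.0379, limma; 0.0109 with the block). It passed without siNTC replicate 3 (adjusted p = 0.0177), and its adjusted p was 0.0568 to 0.194 as each of the other libraries was dropped. Lpin1, a phosphatidate phosphatase that is also a known SREBP target, was at 992, 832 and 893 in siMnt and 537, 347 and 627 in siNTC libraries. It was the second largest log2 fold change of the 28, 0.88 ± 0.22, with no overlap between groups, and with controls that ranged widely, and it did not pass (adjusted p = 0.0651, limma; 0.0105 with the block; 0.0126 without siNTC replicate 3). Stard4, a carrier of cholesterol between membranes, was at 6785, 5186 and 7205 in siMnt and 5020.4, 3492 and 6629 in siNTC libraries, with siNTC replicate 3 inside the siMnt range (adjusted p = 0.378, limma).

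**Figure D5:**
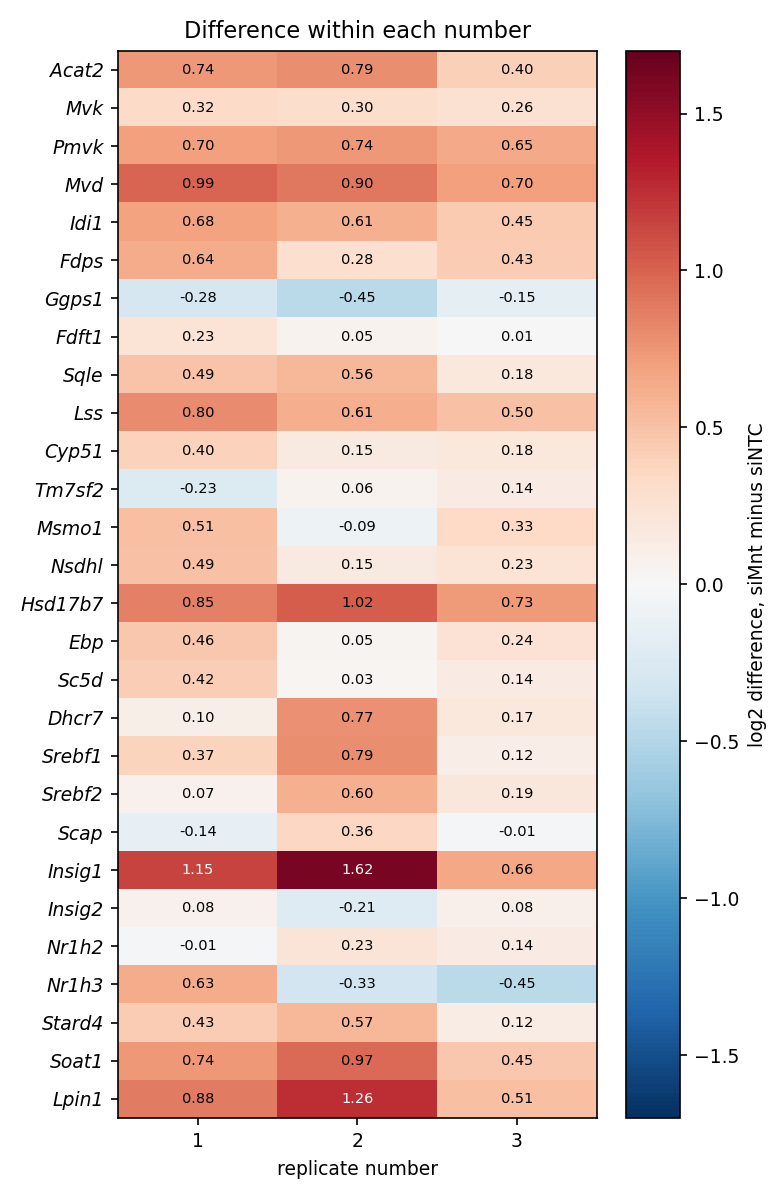
Log2 difference, siMnt minus siNTC, of each tested gene within replicate numbers 1, 2 and 3; red is higher and blue lower in siMnt, on a scale from -1.7 to 1.7. The 6 genes that rose are red in all 3 columns, Ggps1 is blue in all 3, and the third column is paler for Insig1, Soat1 and Lpin1.

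Genes of the pathway outside the list were counted as well. Of 82 such genes in 6 lists 71 were tested, and 3 rose and 0 fell by limma, when 2.56% and 1.37% of all tested genes did. Under the block 8 rose and 5 fell, when 9.33% and 6.56% of all tested genes did, so that the counts lay near those shares. Their median log2 fold change was 0.07. Of 10 other sterol-regulated or sterol-branch enzymes 2 rose. These were Acss2, which makes acetyl-CoA from acetate and is a known SREBP target, at 957, 879 and 972 in siMnt and 467, 358 and 636 in siNTC libraries, and Acat1, the mitochondrial thiolase of ketone metabolism, at 3179.9, 3036 and 2942 in siMnt and 1386, 1452 and 1901 in siNTC libraries. Their log2 fold changes were 0.98 ± 0.21 and 0.96 ± 0.14 (adjusted p = 0.044 and 0.0206, limma), and neither gene had overlapping groups. Of 15 genes of intracellular sterol transport and storage 1 rose, Lipa, the lysosomal lipase that frees cholesterol from its esters, with 6138 ± 795 in siMnt and 3864 ± 496 in siNTC cells (SD, n = 3 each; adjusted p = 0.0486, limma). Without siMnt replicate 1, 2 or 3 or siNTC replicate 1, limma called 0 of these 3 genes, at adjusted p between 0.0563 and 0.228, and without siNTC replicate 2 Acat1 alone (0.0412).

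The machinery that cuts SREBPs and degrades the INSIG proteins and sterol enzymes did not pass in the fit of all libraries. Of its 13 tested genes limma called 0 (5 at an unadjusted p under 0.05, edgeR 0 and DESeq2 1), and the block called 0 higher and 2 lower, Sec23a and Sec24d, when 6.56% of all tested genes were called lower. The 2 with the smallest p were Sec23a, a coat protein of the vesicles that carry SCAP, at 2490.1, 2496 and 2860.1 in siMnt and 3659.6, 3558 and 3698 in siNTC libraries (adjusted p = 0.0521, limma; 0.0196 with the block), and Erlin1, which takes part in degrading sterol enzymes, at 13807 ± 832 in siMnt and 11070.2 ± 796 in siNTC cells (SD, n = 3 each; adjusted p = 0.163, limma). Sec23a was lower in every siMnt library and Erlin1 higher in every one.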

How the data were processed

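RNA sequencing values for 6 libraries, 3 siMnt and 3 siNTC, were taken from 1 deposited table of 14526 genes. Per the submitters' processing notes, TopHat2 2.1.0, DESeq2 and build mm9 were used; for the counting tool, annotation and strand setting, the sources used here give nothing. The deposited signal holds normalised read counts, scaled by the authors with 1 factor for each library: dividing by the value of 1 read gave whole numbers within 0.05 read for 99.8% of values above 0. Genes with a mean of at least 10 (12568) were tested on log2(value + 1) with limma 3.58.1 (R 4.3.3), empirical Bayes with a trend, no block; fold changes on this scale understate changes of low genes. Errors are SD over libraries or SE of a fold change. Whether replicates were separate cultures is not stated, so p-values measure only how these samples vary, possibly for technical reasons. Same-numbered libraries had deviations from the group means that correlated by 0.28, 0.50 and 0.35 across genes, and the other pairs by -0.38 to 0.03. Deviations cancel out within each group, so the low values of the other pairs are no separate evidence. The pairing rests on the same-numbered values, from the same data as the block, and on the numbers in the titles.

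The genes and lists were chosen with earlier results of these data known. Every tested member is named, with Mnt, each other pathway gene that passed and, for a list with none, its 2 of smallest p. Alternatives were other pseudocounts, filters, scalings, variance models and thresholds, the block, leaving out each library, edgeR 4.0.16 and DESeq2 1.42.0 on recovered reads, and, added after seeing the data, GC content and length correction (loess per library, GENCODE M21, another build, 98.8% of tested genes matched). The 2 ratios were compared by exact permutation over libraries. Overlaps of exons also come from GENCODE M21. The fits were run on simulated counts with the same spread setting for every gene and library, no effect of the replicate number and no outlying library. That run cannot show how the fits behave under the spread of these data. Python 3.11.15 prepared the tables.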

Additional observations from a re-analysis of the deposited data

How the results depend on the processing

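Insig1, Mvd and Pmvk were called at an adjusted p under 0.05 in every fit of all 6 libraries, and the median log2 fold change of the 28 genes stayed between 0.28 and 0.44 in all settings. Of 6 called higher, limma without a trend kept 3, the replicate block gave 11, DESeq2 gave 10 and an adjusted p under 0.1 gave 10; under 0.01 it was 0 of all genes by limma. With each library left out in turn the count ran from 0 to 11. Correcting for GC content and length, an alternative added once the data had been seen, gave 9 alone and 13 with the replicate block. For all genes, 494 passed with 322 higher (65.2%); 322 passed with the filter at a mean of 50, 306 without a trend, 1998 with the replicate block, 1457 in DESeq2, 963 with the correction, 2335 with the correction and replicate block, 1336 at 0.1 and 0 at 0.01, where 2938 had an unadjusted p under 0.05, and 0 to 2012 without 1 library (1816 to 4102 at an unadjusted p under 0.05). For the 71 other pathway genes the 3 became 1 with the filter at 50, 13 with the replicate block, 10 in DESeq2, 7 with the correction, 17 with the correction and replicate block, 9 at 0.1, 0 at 0.01 and 0 to 12 without 1 library. The Mnt log2 fold change was -0.96 and passed with the replicate block (-0.96), in DESeq2 (-0.98) and with the correction, with or without the replicate block (-1.04 each); without 1 library it lay between -1.19 and -0.77. Genes near 0 turned sign: Tm7sf2 went to 0.00090 with TMM, 0.00046 in edgeR and 0.011 with the correction in both fits, and Insig2 to 0.039 with the correction in both fits; without 1 library Tm7sf2 lay between -0.076 and 0.051, Insig2 between -0.114 and 0.113, Nr1h3 between -0.28 and 0.090 and Scap between -0.128 and 0.165. The cause of these moves was not tested, and with 5 libraries fewer residual degrees of freedom remain. The Insig1 to Insig2 ratio kept its difference of 1.16, with 0.85 to 1.41 without 1 library, and paired within replicate numbers its exact sign-flip p was 0.25, the smallest 3 pairs allow. Depth limits Abcg1, with under 6 normalised reads in each library.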

Other observations

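Genes that draw on the sterol pathway's products, or share its factors, are given here as counts. Of 13 tested genes of the isoprenoid branch, which attaches farnesyl and geranylgeranyl groups or makes coenzyme Q and dolichol, limma called 0 (2 at an unadjusted p under 0.05, edgeR 0 and DESeq2 1), and the median log2 fold change was -0.05. The 2 with the smallest p were Pdss1, which makes the tail of coenzyme Q, at 200.0, 156 and 212 normalised read counts in siMnt and 295, 449.7 and 274 in siNTC libraries, and the protease Zmpste24, at 2727 ± 109 in siMnt and 3260.1 ± 171 in siNTC cells (SD, n = 3 each). Both lay below the controls in every siMnt library, with adjusted p of 0.0855 and 0.193 (limma, and 0.0419 and 0.124 with the block). Coq2 of this list also lay below (adjusted p = 0.319, limma). Fnta, Fntb and Dhdds lay above the controls in every siMnt library (adjusted p = 0.48, 0.229 and 0.515, limma). Over all tested genes siMnt was lower without overlap in 15.9% and higher in 15.6%.

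Of 11 tested fatty acid synthesis genes driven by SREBP-1 limma called 0 (2 at an unadjusted p under 0.05, edgeR 0 and DESeq2 0), with a median log2 fold change of 0.17. Me1, malic enzyme, was at 11696, 10003 and 10781 in siMnt and 7759, 5620.2 and 9043 in siNTC libraries (adjusted p = 0.118, limma; 0.0264 with the block), and Acacb, an acetyl-CoA carboxylase, at 73.5, 58.5 and 93.1 in siMnt and 38.4, 43.2 and 46.5 in siNTC libraries (adjusted p = 0.125). Of 9 tested genes of oxysterol synthesis and liver X receptor action limma called 0 (3 at an unadjusted p under 0.05, edgeR 0 and DESeq2 2). The block called 1 higher, Cyp46a1, and 2 lower, Arl4c and Hsd3b7, when 9.33% and 6.56% of all tested genes were. Cyp46a1, a cholesterol hydroxylase best known from neurons, was low, at 57.3, 52.5 and 41.7 in siMnt and 19.22, 21.05 and 27.13 in siNTC libraries, and Arl4c, a small GTPase, was at 3287, 2872 and 4071 in siMnt and 6454, 4135 and 5071 in siNTC libraries, with adjusted p of 0.067 and 0.113 (limma).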
